A study of Mus musculus with 2 samples.

Results

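The miR-200 family, miR-203 and miR-205 are the microRNAs that mark epithelial cells, and their 7 genes were examined here in the embryonic mouse hindbrain. The genes were chosen by name and not by level, as the rows whose identifier has the symbol Mir200b, Mir200a, Mir429, Mir200c, Mir141, Mir203 or Mir205 in the GENCODE M21 annotation. All 7 were found among the 1973 microRNA gene rows. MicroRNA sequencing was carried out on the hindbrain of B6NCrl embryos at embryonic day 15.5, in 2 biological replicates of a single group, with both sexes pooled and no treatment or other tissue. Tissue of 62 embryos was pooled for replicate 2 and of 78 for replicate 1, so any difference between individual embryos is averaged within a library.

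The miR-200 family is known for blocking the repressors Zeb1 and Zeb2, which switch off E-cadherin, and so for holding cells in the epithelial state. In the nervous system of the mouse the family is known from the olfactory epithelium, where it is needed for neurons to mature, and from midbrain and hindbrain progenitors, where it restrains Sox2 and E2f3 as cells leave the cell cycle. miR-203 limits the p63-driven renewal of skin keratinocytes, and miR-205 is a microRNA of basal epithelial cells and their progenitors.

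The mature sequences are shown because the seed, bases 2 to 8 from the 5′ end, divides the family into a pair of target groups that cross the genomic clusters. They were taken from RefSeq (build GRCm38.p6), which holds all 7 genes, and the seed is in capitals. The arm shown is the one these microRNAs are known by. The deposited rows count the whole hairpin gene, so the arms were not told apart.
miR-200b-3p: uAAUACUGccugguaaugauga
miR-200c-3p: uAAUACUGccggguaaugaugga
miR-429-3p: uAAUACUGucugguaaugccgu
miR-200a-3p: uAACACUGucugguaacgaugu
miR-141-3p: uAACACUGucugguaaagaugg
miR-203-3p: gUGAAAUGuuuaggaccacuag
miR-205-5p: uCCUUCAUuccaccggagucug

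The seed AAUACUG occurred in 3 of the 1679 named mature mouse sequences of that table, those of Mir200b, Mir200c and Mir429, and the seed AACACUG in 2, those of Mir200a and Mir141. With positions counted from 1 at the 5′ end of miR-200b-3p, the seeds differ by U4C in miR-200a-3p and in miR-141-3p. Outside the seed, miR-200c-3p differs from miR-200b-3p by U11G and A22G and is 23 nt long against 22. miR-429-3p differs from miR-200b-3p by C9U, A19C, U20C and A22U. miR-141-3p differs from miR-200a-3p by C17A and U22G alone. The seeds of miR-203-3p and miR-205-5p were each found in 1 mature sequence of the table. The longest exact stretch that a hairpin shared with another microRNA gene was 17 nt, between Mir200a and Mir141, and lay between 11 and 14 nt for the other 5 genes, leaving out the gene annotated opposite Mir203. None thus shared 20 nt with an annotated microRNA gene elsewhere. The 3p arms of Mir200a and Mir141 differ at 2 bases, and those of Mir200b and Mir200c at 2 of the 22 compared. How the authors' alignment treated mismatches is not given in the sources used here. Whether reads of these genes were placed at both loci of a pair and so left uncounted was not tested. The rest of the genome was not searched for such stretches.

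The members lie at 4 loci, with coordinates in mm10 (GRCm38). Mir200b (ENSMUSG00000065549.2; chromosome 4, 156055681 to 156055750), Mir200a (ENSMUSG00000065400.1; 156054896 to 156054985) and Mir429 (ENSMUSG00000065427.1; 156053905 to 156053987) are transcribed from the minus strand in that order. All 3 lie in an intron of Ttll10 on its strand, and Mir429 also lies inside an exon of the non-coding transcript Gm13648. Mir200c (ENSMUSG00000065462.2; chromosome 6, 124718322 to 124718390) and Mir141 (ENSMUSG00000065474.1; 124717914 to 124717985), also on the minus strand, lie in an intron of the non-coding gene Gm15884, and Mir141 partly overlaps an exon of Gm29008. Mir203 (ENSMUSG00000065574.1; chromosome 12, 112130880 to 112130955, plus strand) lies between genes, 3321 bases from the end of Aspg. Mir205 (ENSMUSG00000065533.1; chromosome 1, 193507463 to 193507530, minus strand) lies inside an exon of the long non-coding gene 4631405K08Rik, which RefSeq calls Mir205hg.

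Replicate 2 held 4839647 reads on the genes' own strand and replicate 1 held 3937840. A count of 0 would allow up to 3 reads, which is 0.62 CPM (the count scaled by those totals) in replicate 2 and 0.762 CPM in replicate 1. Reads carry no molecular identifiers, so this floor and all intervals cover counting error only. The hindbrain label was checked against microRNAs of neural tissue. Mir10a and Mir10b, which lie in Hox clusters and mark the hindbrain and spinal cord, ranked 2 and 5 of all genes. Mir149 and Mir137 ranked 11 and 22, and Mir128-1, Mir128-2 and Mir9-3 ranked 67, 87 and 116. Mir9-2 ranked 384, with 17 reads in replicate 2 and 6 in replicate 1, and Mir9-1 was not found among the gene rows. The Mir124a genes, which make the leading neuronal microRNA, had 9 to 21 reads each in replicate 2 and 6 to 14 in replicate 1. These have near-identical copies, and the part of such copies in their counts was not tested.

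All 7 epithelial genes were detected, and together they made up a small part of the library. Their 3160 reads in replicate 2 were 0.0653% (95% exact interval 0.063 to 0.0676) of all reads on the genes' own strand, and their 2228 in replicate 1 were 0.0566% (0.0543 to 0.059). The mean was 0.0609% ± 0.00616 (SD, n = 2). In a whole tissue, fewer cells of a type and less RNA per cell cannot be told apart. Mature lengths of the arms shown were 22 or 23 nt, so CPM was compared between genes without a correction for length. This assumes that a read covers the whole mature molecule, which the counts per hairpin gene do not show. CPM counts reads, so the order of genes below may not be that of molecules.

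Mir203 held most of these reads. Its 2561 reads in replicate 2 came to 529 CPM (95% exact interval 509 to 550.1) and its 1803 in replicate 1 to 458 CPM (437 to 479), with a mean of 494 ± 50.4 CPM (SD, n = 2). That was 81.0% of the members' reads in replicate 2 and 80.9% in replicate 1. Mir203 ranked 122 of the 721 genes with a read in either library and was the single member above the median of the 426 tested genes, which was 93.7 CPM in replicate 2 and 92.1 CPM in replicate 1. The most abundant gene of these libraries, Mir99a, was 337-fold higher than Mir203. The 6 other members held 599 reads in replicate 2 and 425 in replicate 1, or 0.0116% ± 0.00112 together (SD, n = 2).

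**Figure D1:**
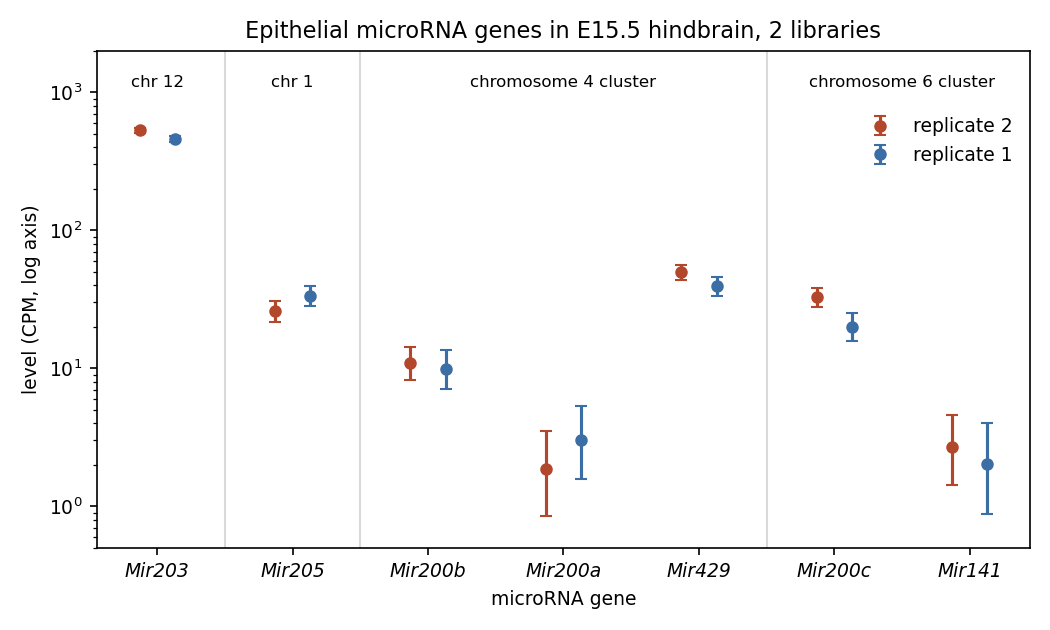
Level of each of the 7 genes in CPM (log axis) in replicate 2 (left point) and replicate 1 (right point), with exact 95% Poisson intervals for counting error. Mir203 stands above 400 CPM in both libraries, while Mir200a and Mir141 lie below 4 CPM.

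Mir205, the basal epithelial microRNA, was far lower than Mir203. Its 125 reads in replicate 2 came to 25.8 CPM (21.5 to 30.8) and its 132 in replicate 1 to 33.5 CPM (28.0 to 39.8), a mean of 29.7 ± 5.44 CPM (SD, n = 2). Mir203 exceeded it 20.5-fold in replicate 2 (95% exact interval of the read ratio 17.1 to 24.7) and 13.7-fold in replicate 1 (11.4 to 16.4).

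In the chromosome 4 cluster the 3 hairpins had unequal levels. Mir429, the last in the direction of transcription, had 241 reads in replicate 2, or 49.8 CPM (43.7 to 56.5), and 155 in replicate 1, or 39.4 CPM (33.4 to 46.1). Mir200b, the first, had 53 reads in replicate 2, or 11.0 CPM (8.2 to 14.3), and 39 in replicate 1, or 9.9 CPM (7.04 to 13.5). Mir200a, between them, had 9 reads in replicate 2, or 1.86 CPM (0.85 to 3.53), and 12 in replicate 1, or 3.05 CPM (1.57 to 5.32). Mir429 thus had 4.55-fold the reads of Mir200b in replicate 2 (3.37 to 6.24) and 3.97-fold in replicate 1 (2.78 to 5.8). Mir200b in turn had 5.89-fold the reads of Mir200a in replicate 2 (2.88 to 13.6) and 3.25-fold in replicate 1 (1.67 to 6.82). The 3 levels kept this order in both libraries, and no interval of a ratio between them held 1.

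In the chromosome 6 cluster Mir200c, the first hairpin, had 158 reads in replicate 2, or 32.6 CPM (27.8 to 38.2), and 79 in replicate 1, or 20.1 CPM (15.9 to 25.0). Mir141 had 13 reads in replicate 2, or 2.69 CPM (1.43 to 4.59), and 8 in replicate 1, or 2.03 CPM (0.877 to 4.0). Mir200c had 12.2-fold the reads of Mir141 in replicate 2 (6.91 to 23.3) and 9.88-fold in replicate 1 (4.77 to 23.7). Summed over their genes, the chromosome 4 cluster held 303 reads in replicate 2 and 206 in replicate 1, and the chromosome 6 cluster 171 in replicate 2 and 87 in replicate 1. Their ratio was 1.77 (1.46 to 2.15) in replicate 2 and 2.37 (1.83 to 3.08) in replicate 1. The ratio between the clusters thus had overlapping intervals in the libraries, and both put the chromosome 4 cluster higher.

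**Figure D2:**
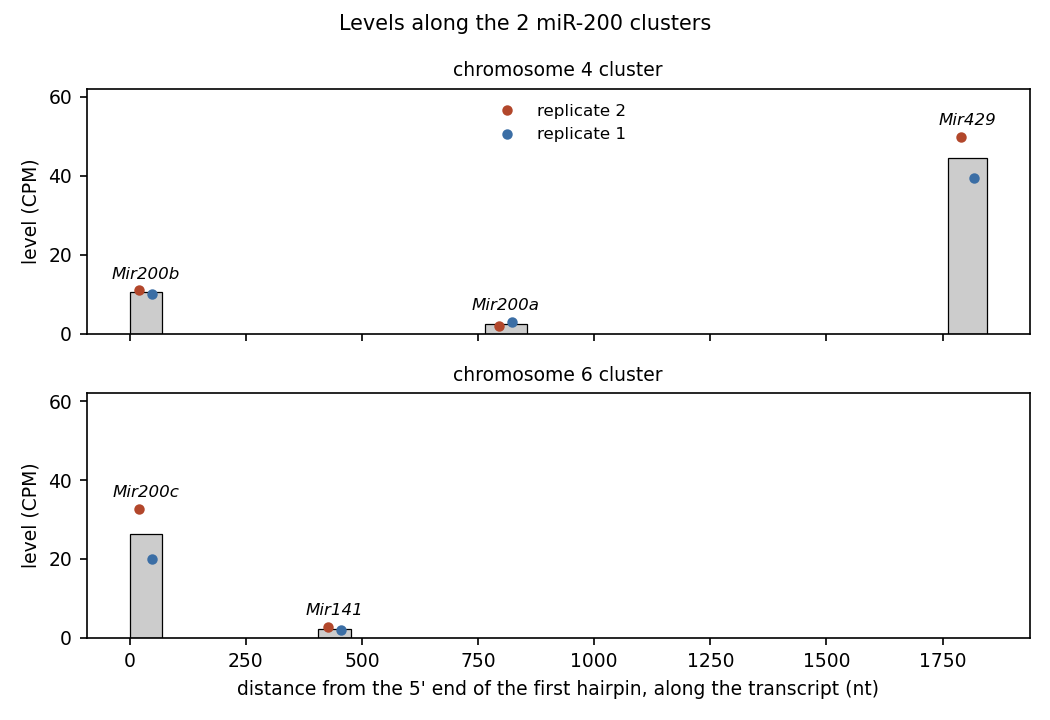
Level in CPM along each miR-200 cluster, drawn to scale by the distance in nt from the 5′ end of the first hairpin. Grey bars span each hairpin and give the mean of the libraries, and points give replicate 2 and replicate 1. In both clusters the gene with the seed AACACUG is the lowest, with Mir200a at 2.45 CPM and Mir141 at 2.36 CPM on average.

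The lowest gene of each cluster was the one whose mature 3p arm carries the seed AACACUG. The 3 genes with the seed AAUACUG held 452 reads in replicate 2 and 273 in replicate 1, or 81.4 ± 17.0 CPM (SD, n = 2). The 2 genes with the seed AACACUG held 22 reads in replicate 2 and 20 in replicate 1, or 4.81 ± 0.377 CPM (SD, n = 2). The limit on reads given above applies to this pair, and also to Mir200b and Mir200c in the other group. The ratio of the seed groups was 20.5 in replicate 2 (13.4 to 33.1) and 13.7 in replicate 1 (8.67 to 22.7). Mir200a and Mir141 were not separable, since Mir200a had 0.692-fold the reads of Mir141 in replicate 2 (0.261 to 1.75) and 1.5-fold in replicate 1 (0.564 to 4.23).

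Unequal levels of neighbouring hairpins were common in these libraries. Across 113 pairs of adjacent tested microRNA genes on the same strand and within 10 kb, a comparison chosen after the values were seen, the median fold between the mean levels was 8.0. Mir429 and Mir200a differed 18.2-fold, and 41 of the 113 pairs differed at least as much. Mir200c and Mir141 differed 11.2-fold, which 48 pairs reached, and Mir200b and Mir200a differed 4.25-fold, which 76 pairs reached. Each of these counts includes the pair itself. Reads placed at several loci, 34.2% of all reads in replicate 2 and 35.4% in replicate 1, were not counted. A gene with copies elsewhere can thus read low beside its neighbour. How many of the 113 pairs hold such a gene was not tested, so the median fold may be too wide.

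Ordered by mean level, Mir203 came first, followed by Mir429 (44.6 ± 7.38 CPM), Mir205, Mir200c (26.4 ± 8.9 CPM), Mir200b (10.4 ± 0.741 CPM), Mir200a (2.45 ± 0.84 CPM) and Mir141 (2.36 ± 0.463 CPM; SD, n = 2 for each). Mir429 was the highest of the next 3 in both libraries, with 1.53-fold the reads of Mir200c in replicate 2 (1.24 to 1.88) and 1.96-fold in replicate 1 (1.49 to 2.61). It had 1.93-fold the reads of Mir205 in replicate 2 (1.55 to 2.41) and 1.17-fold in replicate 1 (0.925 to 1.49). Mir205 had 0.791-fold the reads of Mir200c in replicate 2 (0.621 to 1.01) and 1.67-fold in replicate 1 (1.25 to 2.24), so the libraries put this pair in opposite orders, with the interval of replicate 2 holding 1. Mir200c stood above Mir200b in both libraries, 2.98-fold in replicate 2 (2.17 to 4.15) and 2.03-fold in replicate 1 (1.36 to 3.05). The genes of a pair share the same 2 libraries, so an exact two-sided sign-flip permutation test cannot give a p below 0.5, and no p-value is given for these orders.

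**Figure D3:**
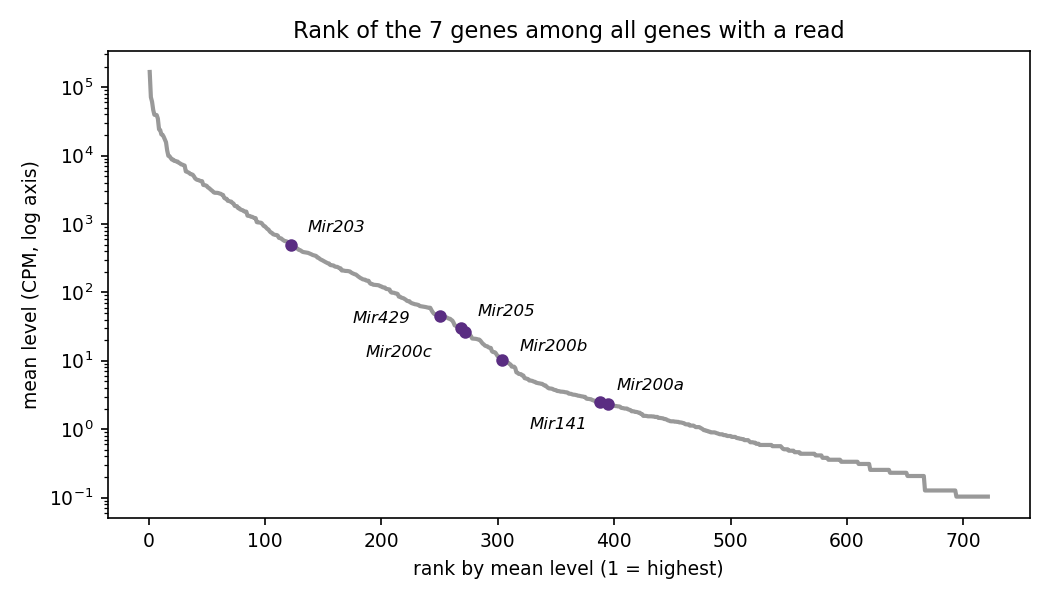
Mean level in CPM (log axis) of the 721 genes with a read in either library (grey line), by rank, with the 7 epithelial genes as points. Mir203 lies at rank 122, and the others lie between rank 250 and rank 395.

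For scale, other microRNAs of epithelial cells were measured in the same libraries. The choroid plexus and ciliated epithelium list of 10 genes held 16.7-fold the members' summed CPM in replicate 2 and 14.8-fold in replicate 1, led by Mir449a at 2854 ± 555 CPM, Mir1298 at 2684 ± 545 CPM and Mir204 at 2168 ± 355 CPM (SD, n = 2). The sensory cluster of Mir182, Mir183 and Mir96, which is expressed in olfactory, hair and photoreceptor cells, held 9.45-fold in replicate 2 and 13.7-fold in replicate 1. A list of 9 other genes of surface or gland epithelium held 6.61-fold in replicate 2 and 7.83-fold in replicate 1, mostly from Mir21a (3416 ± 81.9 CPM), which many cell types express, and Mir375 (675 ± 6.05 CPM), a microRNA of endocrine cells. The third was Mir194-2 at 69.5 ± 3.66 CPM (SD, n = 2), a gut and liver microRNA. Mir31, a keratinocyte microRNA on that list, was at 65.9 ± 6.22 CPM (SD, n = 2), below Mir203 and above the other 6 members. Mesenchymal genes held 9.06-fold in replicate 2 and 11.7-fold in replicate 1, led by Mir143 at 5857 ± 448 CPM. The next of them were Mir214 at 224 ± 6.62 CPM and Mir199b at 98.9 ± 44.0 CPM. Genes of these lists with copies at other loci, Mir194-2 among them, may read low, since reads placed at several loci were not counted. The part of this in the levels and folds was not tested.

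The genes nearest to a member in level were found by the distance between log2(CPM + 1) values over the 2 libraries, for the 5 members with at least 10 reads in both. Nearest to Mir203 were Mir501 (distance 0.12) and Mir325 (0.14), and nearest to Mir429 were Mir212 (0.05) and Mir1249 (0.07). Mir205 lay closest to Mir758 (0.08) and Mir3093 (0.09), and Mir200b to Mir7688 (0.08) and Mir3097 (0.10). The nearest genes to Mir200c were Mir18b (0.18) and Mir26a-2 (0.27), so its levels had less close matches than those of the other 4. A match over 2 libraries is a likeness of level alone.

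The only comparison the series allows is that of its 2 biological replicates, which asks how far the epithelial microRNAs vary between pools of hindbrain. Mir200c and Mir203 were higher in replicate 2 beyond counting error, and the other 5 genes did not pass the test. The test was an exact two-sided binomial test after TMM scaling, adjusted by Benjamini-Hochberg over the 426 genes that reached 10 reads in either library. It compares these libraries and not conditions, and there is no replicate on either side. At an adjusted p of 0.05, 2 of the 7 members were called, against 35.9% of all genes tested. Both were higher in replicate 2, as were 15.3% of all genes tested, while 20.7% were lower. The members' share is thus close to that of all genes.

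Mir200c was 1.61-fold higher in replicate 2, a log2 ratio of 0.69 (95% exact interval 0.29 to 1.09; adjusted p = 0.00201 by the exact binomial test). Of the 27 other tested genes whose reads over both libraries lay within 1.5-fold of its own, 7 were called and 2 lay at least as far from a ratio of 1. Mir203 was 1.14-fold higher in replicate 2, a log2 ratio of 0.19 (0.10 to 0.28; adjusted p = 7.7e-05 by the exact binomial test), and of 38 genes of like depth 12 were called and 6 lay at least as far from 1. Mir429 had a log2 ratio of 0.32 (0.03 to 0.62; adjusted p = 0.0742 by the exact binomial test). Mir205 had one of -0.39 (-0.76 to -0.03; adjusted p = 0.0796 by the exact binomial test). For both, the interval of the single gene left out 0 while the adjusted value did not pass.

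The log2 ratio was 0.13 (-0.50 to 0.76) for Mir200b, 0.39 (-0.99 to 1.86) for Mir141 and -0.73 (-2.16 to 0.64) for Mir200a. With 21 reads each in both libraries together, Mir200a and Mir141 allowed changes of more than 1.5-fold in either direction, so a difference of that size between the pools was not detectable at this depth. Of the 72 other genes within 1.5-fold of their reads, 4 were called. Of the 7 genes 5 had a log2 ratio above 0 and 2 below, while 203 of the 426 genes tested, or 47.7%, were above 0. The median log2 ratio of the members was 0.19 against -0.01 over all genes tested. Within the chromosome 6 cluster, the ratios of Mir200c and Mir141 differed by 0.30 on the log2 scale, and 36 of the 113 neighbouring pairs differed at least as much. The ratios of Mir429 and Mir200a differed by 1.05, which 5 pairs reached, and those of Mir200a and Mir200b by 0.86, which 8 pairs reached. The median over the pairs was 0.17, and both of these values rest on the few reads of Mir200a.

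**Figure D4:**
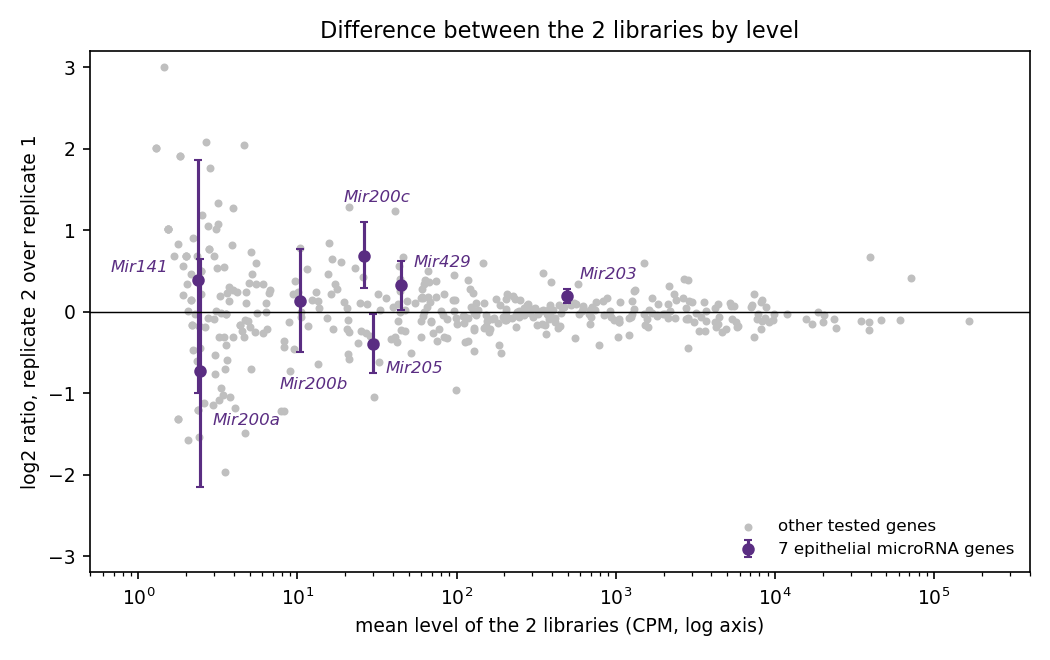
Log2 ratio of replicate 2 over replicate 1 against mean level in CPM (log axis) for the tested genes, with the 7 epithelial genes in purple and their exact 95% intervals. Mir200c at 0.69 and Mir203 at 0.19 passed the test, and 1 other gene past the axis is drawn at 3.

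When each gene was allowed a coefficient of variation of 0.1, the edgeR exact test called 6 genes, or 1.41% of those tested, and none was a member. Mir200c then had an adjusted p of 0.45 and an unadjusted p of 0.019 by the edgeR exact test, and it was the single member of the 7 with an unadjusted p under 0.05. By the exact binomial test, markers of neural tissue and of other cell types also differed between the libraries beyond counting error. That test called 15.3% of all genes tested higher in replicate 2 and 20.7% lower. The counts below are its calls and not those of the edgeR test, which called 6 genes in all. Of 11 tested hindbrain and neural genes 6 were higher in replicate 2 and 1 lower, with a median log2 ratio of 0.27, and the list held 16.4% of reads in replicate 2 and 12.3% in replicate 1. Mir10b had a log2 ratio of 0.67 and Mir10a one of 0.41. Of 9 tested choroid plexus and ciliated genes 7 were higher in replicate 2 and 0 lower, with 1.09% of reads in replicate 2 and 0.839% in replicate 1. All 3 sensory cluster genes were lower in replicate 2, with 0.617% of reads in replicate 2 and 0.776% in replicate 1. Of 5 tested mesenchymal genes 3 were lower in replicate 2, with 0.591% in replicate 2 and 0.662% in replicate 1, and of 8 other epithelial genes 1 was lower, with 0.431% in replicate 2 and 0.443% in replicate 1. No measured gene of these 5 groups was at 0 in both libraries. The part of these cells in the ratios of Mir200c and Mir203 was not tested.

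Of the 7 genes, Mir203 alone had reads on the opposite strand. It had 48 in replicate 2, or 1.84% of its reads (95% Clopper-Pearson interval 1.36 to 2.43), and 41 in replicate 1, or 2.22% (1.6 to 3.0). The other 6 members had 0 such reads in either library, which for Mir429, the deepest, allows a share of up to 1.52% in replicate 2 and 2.35% in replicate 1 by the same method. Over all gene rows together, 2.09% of reads in replicate 2 and 2.22% in replicate 1 lay on the opposite strand. Most genes had none. Of the 281 genes with at least 100 reads in each library, 249 had none in replicate 2 and 248 none in replicate 1. In both libraries 13 of them, Mir203 included, had at least the share of Mir203. RefSeq annotates the microRNA gene Gm51289, with the mature names miR-203b-3p and miR-203b-5p, on the minus strand from 112130887 to 112130946 of chromosome 12. Its 60 bases all lie within Mir203 and are its exact reverse complement. Both hairpins are shown 5′ to 3′, each on its own strand, with the mature arms in capitals.
Mir203: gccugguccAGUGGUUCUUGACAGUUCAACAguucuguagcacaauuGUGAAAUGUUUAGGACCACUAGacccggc
Gm51289: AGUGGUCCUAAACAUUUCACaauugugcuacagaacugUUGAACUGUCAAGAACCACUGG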

How the data were processed

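The authors deposited raw read counts per microRNA gene for each library, per the deposited notes on build mm10 and annotation GENCODE M4. Aligner, trimming and counter: not given in the sources used here. A gene row holds counts of both strands and of each strand. As the tables have no header, the single-strand column of larger total was used as the genes' own. Rows without a gene, 4 in each table, were dropped: in replicate 2 they held 34.2% of all reads as placed at several loci, 15.8% as unmapped and 2.96% as outside any gene, and in replicate 1 35.4%, 13.7% and 2.56%. Symbols came from GENCODE M21 for 1894 of 1973 identifiers. Levels are CPM with exact Poisson 95% intervals. Ratios between genes have Clopper-Pearson based intervals. The library test used edgeR 4.0.16 TMM factors (R 4.3.3) and an exact conditional binomial test (Python 3.11.15, scipy 1.17.1, numpy 2.4.6), checked on simulated data. The simulated libraries held counting error alone and were scaled by total counts, so the check covers neither TMM scaling nor variation between pools. Alternatives were DESeq2 1.42.0 size factors, total counts, other count minimums, both strands, edgeR's exact test at an assumed variation, other denominators and each library alone. The genes, lists and rules were chosen with earlier results of these data known. The named genes were all 7 members, the 2 nearest in level to each with 10 reads in both libraries, microRNA genes within 50 kb and the 3 highest of each list. Mir31, Mir99a, Mir137 and the Mir124a, Mir128 and Mir9 genes fall outside this rule and were named after their values were seen. Within 50 kb of Mir203, outside the members, Mir3073a had 1 read in replicate 2 and 0 in replicate 1.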

Additional observations from a re-analysis of the deposited data

Results flagged for a closer look

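Mir203 had reads in a column that the comparison of the libraries did not use, that of the opposite strand: 48 in replicate 2 and 41 in replicate 1. Both counts are above the 3 reads that a count of 0 allows, a limit of counting error and not a background of such reads. In each library 13 of the 281 genes with at least 100 reads in both, Mir203 included, had at least its share. No control sample exists in the series. The other 6 genes had 0 opposite reads. How many of these reads come from Gm51289 was not tested.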

How the results depend on the processing

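Under DESeq2 size factors, total counts, both strands together and minimums of 1 and 50 reads, the exact binomial test called between 137 and 163 genes, and 2 of the members each time. The log2 ratios kept their direction in all 7 members under each of these alternatives in which they were tested. Direction could not change in the edgeR alternatives, which reuse the main ratios. Mir200a and Mir141 had too few reads for the minimum of 50 among these settings. Mir429 had an adjusted p between 0.053 and 1 and Mir205 between 0.0739 and 1 over these and the edgeR alternatives. The edgeR exact test called 6 genes at a coefficient of variation of 0.1 and 0 at 0.2, with 32 and 12 genes at an unadjusted p under 0.05. Of the members it called 0 at both, with 1 and 0 at an unadjusted p under 0.05, and at 0.2 both Mir203 and Mir200c had an adjusted p of 1. With a coefficient of variation of 0, an alternative chosen after seeing the data, the same test called 153 genes and 2 members, so the lost calls follow the variation assumed. Per all reads of the library, the summed share of the members was 0.0284%, since that denominator includes reads with no gene. As CPM of that total, Mir203 was at 230.1, Mir429 at 20.8, Mir205 at 13.9, Mir200c at 12.3, Mir200b at 4.86, Mir200a at 1.15 and Mir141 at 1.1. With each library left out in turn, the summed share lay between 0.0566% and 0.0653%. A left-out library leaves no ratio between libraries. No paired analysis was possible because the series has 1 group of 2 libraries.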
